A study of Drosophila melanogaster with 12 samples.

Results

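RNA of wild type Drosophila melanogaster oocytes was compared between immature oocytes of oogenesis stages 9 to 10 and mature oocytes of stage 14. The 4 libraries that carry these labels, 2 immature and 2 mature, were taken from 12 in all. Both groups are the strain w1118, used as wild type, with no transgene or treatment named, and hand dissection from females 3 to 4 days old gave the oocytes. The remaining libraries are activated eggs of that strain and the same 3 stages of a strain labelled wispKG5287, a null allele of wispy, the gene of a cytoplasmic poly(A) polymerase. Of these, the 4 oocyte libraries of that mutant are used below, for the estimate of spread and for values set beside those of wild type. Among the fits, only those of all 12 libraries, given as alternatives or exploratory, include the egg libraries. The replicates are called biological in the labels, which do not say how many oocytes or females each holds.

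In the fly ovary an oocyte grows while joined to sister nurse cells, which make most of its RNA, and it is wrapped by somatic follicle cells. At stages 9 to 10 yolk is taken up and the nurse cells are active. They later empty their contents into the oocyte and die, and at stage 14 a transcriptionally quiet egg cell waits, arrested in meiosis, in its finished shell. Stored mRNA then supplies egg activation and the first nuclear divisions of the embryo, which run without transcription.

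The values are the authors' normalised read counts, and 5421 transcript records were analysed, of which 60 are noncoding. No value is below 100.07, so a record is listed only if it reached about 100 in all 12 libraries, and depth is unknown. Library sums were 13798129 and 11337518 in the immature oocytes and 11081267 and 12371697 in the mature ones. Germline transcripts were listed at both stages. For osk, the posterior determinant, the immature libraries read 17330 and 17320 and the mature ones 16100 and 17040. For wisp the 4 wild type libraries read 3623 to 10190 and the 4 mutant oocyte libraries 249 to 718, in the direction of the labels. Of 38 markers of follicle cells and eggshell 5 were listed, and their summed level was 21230 and 29140 in immature and 17430 and 18520 in mature oocytes. Of 18 muscle markers only Tm1 was listed, and of 16 fat body and haemocyte markers only Sp7. Yolk protein and chorion genes are among the markers with no value here, so follicle cell RNA cannot be followed with them.

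The immature replicates stood far apart, and this precedes every result. The log2 values of the immature libraries correlated at r = 0.828 across records, against 0.993 for the mature libraries. Between the immature libraries 1117 records differed at least 2-fold, 1114 of them lower in replicate 2, whereas 9 did between the mature libraries. Immature replicate 1 lay nearer to the mature libraries (r = 0.973 and 0.967) than to its own replicate. The mutant immature libraries were also apart (r = 0.858), and immature replicate 2 of wild type was close to immature replicate 2 of the mutant (r = 0.977). Noncoding records took 25.8% of the sum in immature replicate 1 and 13.0% to 16.4% in the other 3 wild type libraries.

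With this spread no record was called. limma on log2(value + 1), fitted over the 8 oocyte libraries of both genotypes with Benjamini-Hochberg adjustment over 5421 records, called 0 higher (0.0%) and 0 lower (0.0%) in mature oocytes at an adjusted p under 0.05. The smallest adjusted p was 0.0552, against 0.649 with the 4 wild type libraries alone and 0.676 with array weights. The 8-library fit takes its libraries as independent, whereas same-numbered replicates deviated together between the genotypes, at 0.849 in immature and 0.483 in mature oocytes. Its p-values, here and below, may therefore be too small. At an unadjusted p under 0.05 there were 273 records higher (5.04%) and 266 lower (4.91%), a split that became 170 and 405 with median-of-ratios scaling and 126 and 293 with quantile normalisation. An exact permutation test of a single record with 2 libraries against 2 cannot give a two-sided p under 0.333. What follows therefore describes values in each library, and no record or group is said to have changed. A record is called separated when both mature libraries lie above, or both below, both immature libraries, which held for 1406 records above (25.9%) and 942 below (17.4%). These shares are the background for every wild type list count below. The balance turned with scaling, to 963 above and 1340 below when libraries were scaled by the median of ratios, and 869 above and 1258 below after quantile normalisation. At least 2-fold between every mature and every immature library were 3 records above (0.0553%) and 25 below (0.461%). Without immature replicate 1 the former count was 992 and the latter 59, without immature replicate 2 they were 14 and 50, and without mature replicate 1 the former was 16. The median log2 difference of all records was 0.14.

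The same-numbered pairs gave different pictures. In replicate 1, mature minus immature, 78 records differed at least 2-fold (1.44%), 15 higher and 63 lower. In replicate 2 it was 1295 records (23.9%), 1206 higher and 89 lower. The differences of the pairs correlated at -0.039 across records, which are not independent, and 50.6% of records had the same sign in both. At least 2-fold in the same direction in both pairs were 7 higher and 25 lower.

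**Figure D1:**
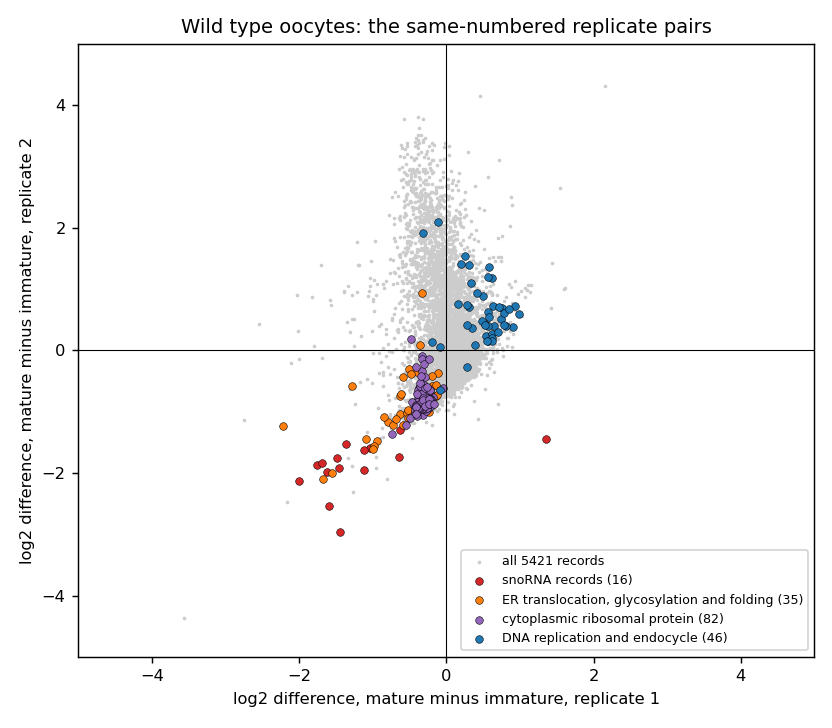
Each point is a transcript record, with the log2 difference between mature and immature wild type oocytes in replicate 1 on the x axis and in replicate 2 on the y axis. Grey points spread along the y axis, where 1206 records were at least 2-fold higher in replicate 2, while snoRNA, endoplasmic reticulum and ribosomal protein records lie mostly in the lower left and DNA replication records mostly in the upper right.

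Small nucleolar RNAs had the lowest median of the lists examined. These RNAs guide the chemical modification and cleavage of ribosomal RNA in the nucleolus and are usually cut from introns. Of 16 records 15 (93.8%) were lower in both mature libraries, against 17.4% of all records. The median log2 difference was -1.58, with -1.41 in replicate 1 and -1.79 in replicate 2. The 16 include scaRNA:MeU5-C46, by its name a small Cajal body RNA, at -0.75. The records of this list make up 12 of the 25 at least 2-fold lower in every mature library. In these libraries, as in all bulk RNA, fewer cells of a type and less RNA per cell cannot be told apart.

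For snoRNA:Or-CD2, at 2R:9097030-9097169 on the plus strand of dm6, the immature libraries read 1123 and 1060 and the mature ones 278 and 241. Both mature values were far below the immature ones, and the log2 difference was -2.07 ± 0.19 (SE, adjusted p = 0.0552). For U3, the RNA needed for the first cuts of the ribosomal RNA precursor, the record snoRNA:U3:54Aa read 5085 and 7164 in immature and 1684 and 1230 in mature oocytes. The other U3 record, snoRNA:U3:9B, read 1752 and 3069 against 641 and 394. U3 copies are much alike, so their reads may be shared between records. The pseudouridylation guide snoRNA:Psi18S-176 read 3107 and 2770 in immature and 914 and 753 in mature oocytes. At snoRNA:Or-aca5 the immature values were 2805 and 2622 and the mature ones 866 and 736. In all of these the groups did not overlap and the immature libraries were the higher, each by more than 2-fold.

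Other guides with names set by their rRNA site followed the same order. Immature values of 679 and 653 stood against 220 and 164 for snoRNA:Psi28S-2179. The values were 1262 and 1418 against 449 and 420 for snoRNA:Psi18S-1854c, which lies on the minus strand within the span of the ribosomal protein gene RpS5a, so that reads may be shared with it. They were 1232 and 1425 against 447 and 375 for snoRNA:Psi18S-1086, and 2658 and 2565 against 1030 and 893 for snoRNA:Psi18S-1820. The exception was snoRNA:229, which read 114 and 689 in immature and 294 and 251 in mature oocytes and so overlapped. In the mutant oocytes, where 34.4% of all records were lower and 32.8% higher without overlap, 15 of the 16 were lower, with pair medians of -2.05 and -2.95. Of the 10 spliceosomal and 7SK records 6 were lower in both mature libraries, with a median of -0.46, and snRNA:7SK read 21300 and 31920 against 17070 and 15090.

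The protein synthesis machinery was lower by less. Of 82 cytoplasmic ribosomal protein records 80 were lower in both mature libraries, with a median log2 difference of -0.55 (-0.32 in replicate 1 and -0.81 in replicate 2), and they took 6.80% and 11.0% of the sum in immature against 6.73% and 5.89% in mature oocytes. RpL3, a large subunit protein, read 25200 and 35000 in immature and 19360 and 18660 in mature oocytes. For sta, a small subunit protein, the values were 24700 and 36580 against 16960 and 15690. The widest separation was that of RpS5a, at 8716 and 11140 against 5212 and 4324. Its germline-enriched paralog RpS5b read 11050 and 16490 against 10750 and 10790, a gap that is small beside the spread of the immature libraries and a difference that turned to 0.026 with quantile normalisation. RpL41 and RpS15Ab were the records that overlapped. The share of ribosomal protein genes in immature replicate 1 lay within 0.1 percentage points of that in mature replicate 1. The order of these shares of the whole sum therefore rests on immature replicate 2. That sum includes noncoding records, which took 25.8% of it in immature replicate 1 and 13.0% in mature replicate 1. The summed values of the list were 938700 and 1252000 in immature against 745400 and 728200 in mature oocytes, higher in both immature libraries.

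Among 44 translation factors 24 were lower and 1 higher in both mature libraries, with a median of -0.31 (-0.29 and -0.46 in the pairs). In the replicate 2 pair 11 of the 44 were at least 2-fold higher and 0 lower, against 1206 and 89 of all 5421 records. The elongation factor Ef1alpha48D read 126800 and 105300 in immature and 94410 and 96590 in mature oocytes, and EF2 60200 and 87680 against 49450 and 51570. With quantile normalisation the log2 difference of Ef1alpha48D turned from -0.27 to 0.10. Of 29 aminoacyl-tRNA synthetases, which charge tRNAs, 16 were lower and 1 higher (median -0.32), and Aats-ile read 4206 and 4433 against 3606 and 3793. Of 26 nucleolar and ribosome assembly genes 17 were lower and 1 higher (median -0.23). Non1 read 6623 and 9347 against 5590 and 5659, and Nop60B 8669 and 8545 against 8354 and 8049, a difference that turned to 0.11 with quantile normalisation.

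Genes of the secretory pathway's entry formed a further group on the lower side. Its list was assembled after the values were seen and holds members entered because they ranked high, so its counts only describe. Of 35 records for translocation, glycosylation and folding in the endoplasmic reticulum 33 were lower in both mature libraries, with a median of -0.69 (-0.53 and -0.95 in the pairs). TRAM, a partner of the translocation channel at X:935232-937822, read 1965 and 2283 in immature and 616 and 531 in mature oocytes, a log2 difference of -1.89 ± 0.17 (SE, adjusted p = 0.0552). Sec61alpha, the channel itself, read 7636 and 8211 against 3573 and 3014. Spp, the signal peptide peptidase, read 2268 and 3125 against 1132 and 1019. OstStt3, the catalytic subunit of oligosaccharyltransferase, read 2343 and 2994 against 1181 and 1011. The groups were separated in all 4, and each immature value exceeded each mature one by about 2-fold or more.

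The calcium-binding protein gene scf read 828 and 892 in immature and 282 and 223 in mature oocytes (-1.77 ± 0.17, adjusted p = 0.0552). Fkbp14, a prolyl isomerase of the reticulum, read 860 and 435 against 185 and 185. The folding enzymes were lower by less, with Pdi at 12490 and 14530 against 8104 and 7096 and the chaperone Hsc70-3 at 19420 and 17230 against 12940 and 12680. Cnx99A, the calnexin gene, and Srp9 overlapped. In the coats that carry cargo between the reticulum and the Golgi, 19 of 24 records were lower and 0 higher (median -0.61). Over all records 17.4% were lower and 25.9% higher. This list too was assembled after the values were seen, so its counts only describe. For alphaCOP of the COPI coat the values were 3898 and 5994 against 2605 and 2452, and for Sec24CD of COPII 3378 and 4020 against 1988 and 1884. The GTPase Arf79F, at 5071 and 763 against 2961 and 3516, overlapped, and its immature libraries differed more than the stages did. The summed level of the 5 listed follicle cell and eggshell markers, given above, was also lower in both mature libraries, and its part in the lower groups was not tested. Of the 5, 3 were lower in both mature libraries and fs(2)ltoPP43 was higher, at 622 and 440 against 870 and 1021. Most of the sum came from fs(1)N and fs(1)M3, so it is not read as a level of follicle cell RNA.

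**Figure D2:**
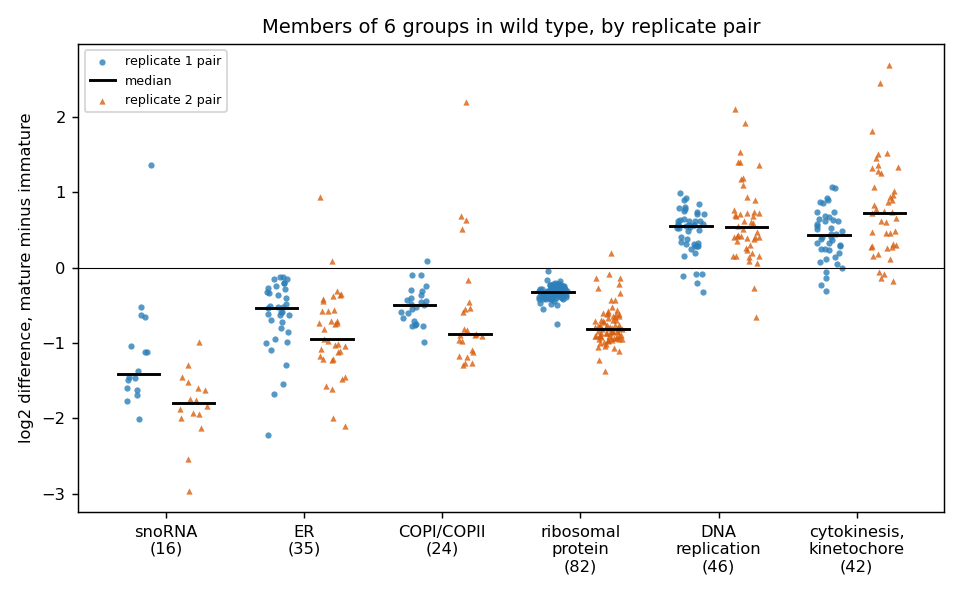
Log2 differences between mature and immature wild type oocytes, with 1 point per record, circles for replicate 1, triangles for replicate 2 and bars for medians, in 6 groups with their numbers of records. snoRNA medians were -1.41 and -1.79, those of DNA replication 0.56 and 0.53.

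Single enzymes of lipid and nucleotide metabolism were among those furthest apart. CG3523, which RefSeq names FASN1, a fatty acid synthase, lies at 2L:3056598-3068177 and read 9022 and 8770 in immature and 764 and 426 in mature oocytes. That is the widest difference of all records, with a log2 difference of -3.96 ± 0.44 (SE) and an adjusted p of 0.085. It was chosen after its values were seen. In the same way ade3, an enzyme of purine synthesis, read 2495 and 3804 against 1032 and 763, and r, the first enzyme of pyrimidine synthesis, 2835 and 4820 against 1465 and 1279. Over the 14 listed genes of purine and pyrimidine synthesis 8 were lower (57.1%) and 2 higher (14.3%). Over the 9 of fatty acid synthesis and NADPH supply 4 were lower (44.4%) and 2 higher (22.2%). Of all records 17.4% were lower and 25.9% higher. Both lists were drawn up after the values were seen and between them include CG3523, ade3 and r, so these counts only describe. Pat1, a kinesin light chain-like protein, read 2109 and 1797 in immature and 471 and 324 in mature oocytes, with a log2 difference of -2.31 ± 0.23 (SE, adjusted p = 0.0594). All of the genes named here were separated, and 24 of the 25 records at least 2-fold lower in wild type were lower without overlap in the mutant too, as were 34.4% of all records.

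On the higher side stood genes that copy DNA. The embryo's first divisions alternate replication and mitosis in quick succession and draw on stored products, and nurse and follicle cells also replicate without dividing. All 46 genes of the list were in the table, and 37 were higher and 1 lower in both mature libraries, against 25.9% and 17.4% of all records. The median log2 difference was 0.58, with 0.56 in replicate 1 and 0.53 in replicate 2. RnrS, the small subunit of ribonucleotide reductase, which makes deoxynucleotides, read 5101 and 5388 in immature and 7944 and 8929 in mature oocytes (0.68 ± 0.19, SE, adjusted p = 0.406). CycE, the cyclin that starts S phase, read 4432 and 3148 against 6615 and 8115. The groups were separated in both, by less than 2-fold at their nearest values.

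The members spread by role. Of the origin recognition complex, Orc1 read 2400 and 2950 in immature and 4038 and 4766 in mature oocytes, and Orc6 343 and 246 against 508 and 563. Licensing factors were higher too, with Cdc6 at 1369 and 1792 against 2356 and 2722. The licensing inhibitor geminin read 1275 and 1086 against 1694 and 2076. Helicase subunits were closer, with Mcm2 at 2997 and 4371 against 4368 and 5146 and Mcm7 at 2737 and 4100 against 4047 and 4561, both just overlapping. PCNA, the polymerase clamp, read 2520 and 3004 against 3761 and 4401. The catalytic subunits DNApol-alpha180 and DNApol-epsilon overlapped, at 2971 and 2732 against 2800 and 2845 and at 2288 and 3380 against 2784 and 2801. The origin recognition gene lat was the 1 separated downward, at 1510 and 2363 against 1421 and 1506. Immature replicate 2 exceeded replicate 1 for most of these genes by a median of 0.28, opposite to the direction of the 1114 records above. The mutant oocytes had 33 of the 46 higher and 6 lower, against 32.8% and 34.4% of all records there, with pair medians of 0.48 and 0.56.

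Genes of the spindle, kinetochore and cell division were alike in order. This list too was drawn up after the values were seen, with HipHop entered for its rank. Of 42 records 34 were higher and 1 lower in both mature libraries, and the median was 0.67 (0.43 and 0.73 in the pairs). The centromeric histone gene cid, at 2R:13485617-13486631, read 397 and 465 in immature and 830 and 855 in mature oocytes (0.97 ± 0.19, SE, adjusted p = 0.232). For sti, the citron kinase of the closing cleavage furrow, the values were 1855 and 1390 against 3104 and 3805. The furrow kinesin pav read 1512 and 1129 against 2533 and 3255, and its partner tum 2288 and 2306 against 3528 and 4297. Each of these was separated. In contrast cal1, which loads cid, read 2973 and 617 against 2960 and 3973, and its immature libraries enclosed a mature one.

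Regulators of meiosis and the cell cycle stood more often on the higher side. Of 49 records 24 were higher (49.0%) and 1 lower (2.04%), against 25.9% and 17.4% of all records. The median was 0.42 (0.21 and 0.49 in the pairs). The mitotic cyclin CycB read 38840 and 33310 in immature and 41370 and 44530 in mature oocytes, a small separation. CycA read 16690 and 9341 against 18040 and 20860. For stg, the mitotic Cdc25 phosphatase, the libraries read 5071 and 776 against 4352 and 6433, and only immature replicate 2 stood apart. The meiotic phosphatase twe read 1639 and 503 against 1966 and 2324. Of 23 egg activation genes 9 were higher and 2 lower, and their pair medians of 0.07 and 1.19 differed more than the groups did. smg, a translational repressor of maternal mRNA, read 18280 and 6431 against 19730 and 23620.

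Histone and chromatin assembly genes gave 9 higher and 1 lower of 19. Slbp, which binds the end of histone mRNA, read 1076 and 1144 in immature and 1703 and 1892 in mature oocytes, and Caf1-180, a chaperone subunit, 2722 and 2155 against 4050 and 4217. His4:CG33907 read 5516 and 7485 against 11760 and 14890. Its copies are nearly identical, so the count is uncertain. The most abundant members did not share this order. dhd, a germline thioredoxin, read 37750 and 45960 against 42280 and 39420, and the chaperone Nap1 11070 and 13060 against 9924 and 10360. With quantile normalisation both had a positive difference, of 0.27 and 0.081.

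**Figure D3:**
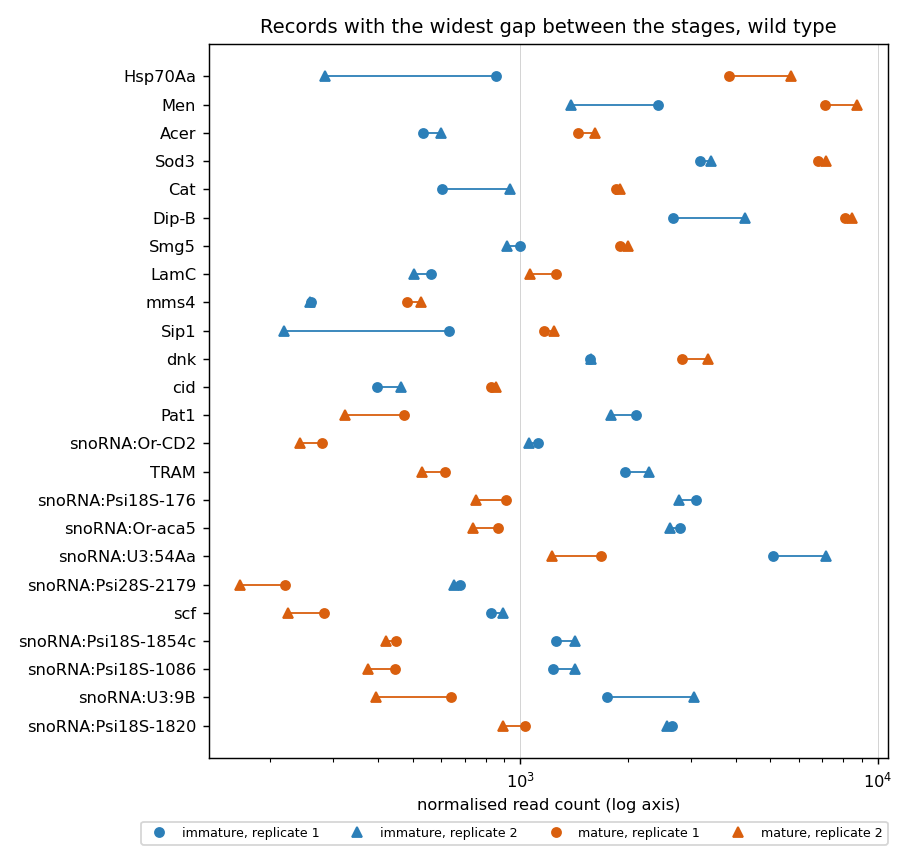
Normalised read counts (log axis) of the 24 records, 12 in each direction, with the widest gap between the stages among genes not known only by an annotation number, blue for immature and orange for mature oocytes, circles for replicate 1 and triangles for replicate 2, joined within a stage. Hsp70Aa read 285 and 857 in immature and 3832 and 5699 in mature oocytes, and none of the 24 passed the adjusted test.

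Among single genes Hsp70Aa had the widest upward gap. This heat shock chaperone gene, at 3R:11954163-11956544, read 857 and 285 in immature and 3832 and 5699 in mature oocytes (3.24 ± 0.54, SE, adjusted p = 0.185). It has near-identical copies, among which reads may be split. In the mutant it read 6477 and 4062 in immature and 2957 and 3684 in mature oocytes, the opposite order. Men, a malic enzyme that makes NADPH, read 2433 and 1389 against 7105 and 8765 (2.10 ± 0.35, SE), and 2330 and 1392 against 5842 and 5964 in the mutant. The angiotensin-converting enzyme relative Acer read 536 and 601 against 1453 and 1614. These 3 were the records at least 2-fold higher in every mature library.

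The antioxidant enzymes Sod3, a superoxide dismutase, and Cat, catalase, were also apart. Sod3 read 3171 and 3408 in immature and 6817 and 7172 in mature oocytes. Cat read 605 and 933 against 1847 and 1895. Of the 12 antioxidant records 3 were higher and 3 lower (25.0% each), against 25.9% and 17.4% of all records. No order of the list as a whole is read from these counts. The dipeptidase gene Dip-B read 2667 and 4250 against 8107 and 8469. Smg5, a factor of nonsense-mediated decay, read 1001 and 916 against 1901 and 2004. LamC, an A-type lamin, read 563 and 505 against 1256 and 1062. The remaining ones by rank were mms4 at 261 and 259 against 482 and 529, Sip1 at 631 and 219 against 1163 and 1246, and dnk, a deoxyribonucleoside kinase, at 1571 and 1580 against 2839 and 3353. Among noncoding records the widest upward gaps were small, with CR43809 at 191 and 201 against 249 and 257, CR32027 at 290 and 138 against 307 and 295, and CR41544 at 13980 and 11460 against 15060 and 36920.

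Energy and protein turnover genes differed by list. Of 65 oxidative phosphorylation genes 45 were lower and 0 higher in both mature libraries, with a median of -0.28 (-0.40 when scaled by the median of ratios, -0.46 after quantile normalisation), and ATPsyn-beta read 16300 and 19480 in immature and 14050 and 13470 in mature oocytes. Of 67 mitochondrial ribosomal protein genes 22 were lower (32.8%) and 1 higher (1.49%), with a median of -0.15 that was -0.26 and -0.41 under those scalings. Cytoplasmic ribosomal protein genes, above, had -0.67 and -0.36. In the 32 proteasome genes 2 were higher and 1 lower, with medians of 0.13 and -0.28 in the pairs, and Rpn2 read 5792 and 8833 against 5542 and 5303. The glycolytic Gapdh2 read 20360 and 26690 against 21850 and 23480 and overlapped. The yolk receptor yl read 37400 and 68390 against 37310 and 34960, and only immature replicate 2 stood apart.

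**Figure D4:**
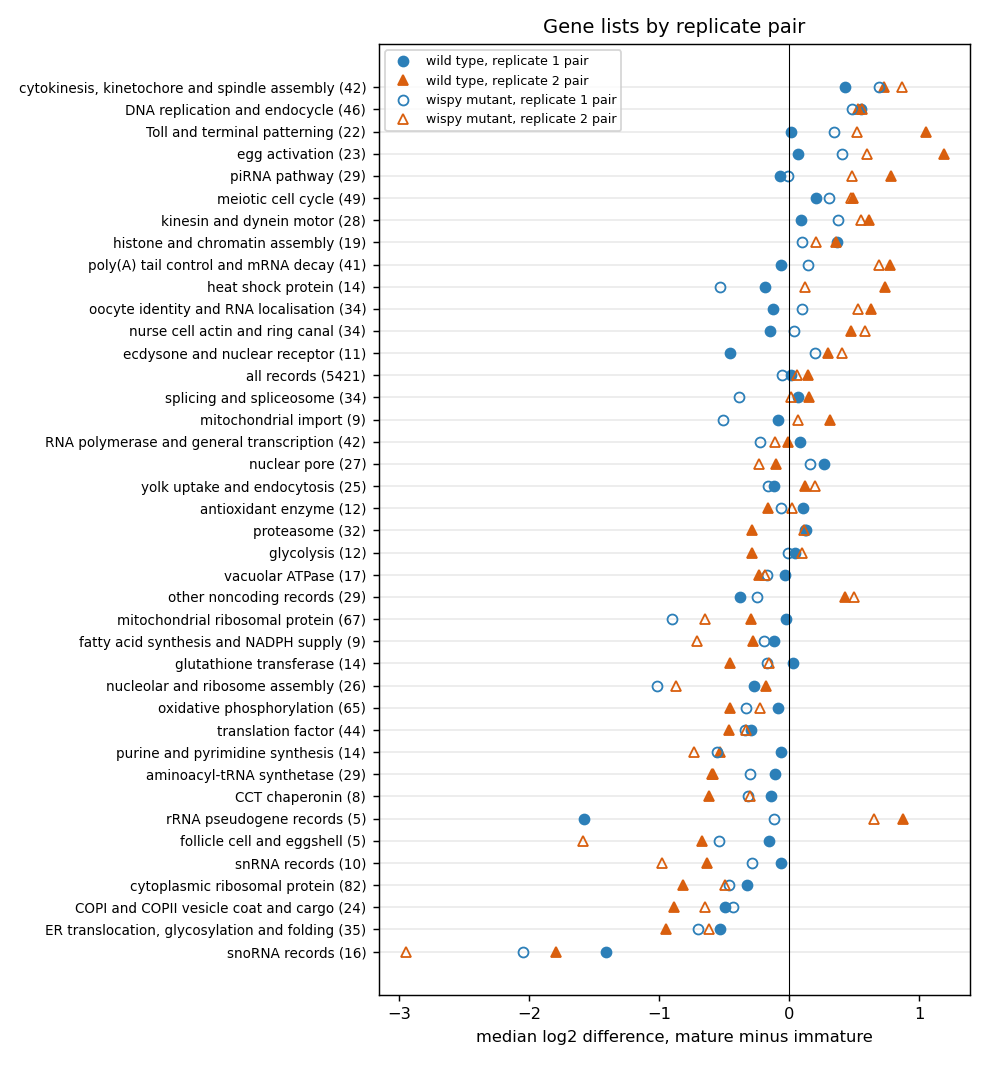
Median log2 difference between mature and immature oocytes for each gene list with at least 3 records, number of records in brackets, circles for replicate 1 pairs and triangles for replicate 2 pairs, filled for wild type and open for the wispy mutant. The snoRNA, endoplasmic reticulum and ribosomal protein lists lie left of 0 in all 4 pairs and the DNA replication list right of 0, whereas egg activation reads 0.07 and 1.19 in the wild type pairs.

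Several germline lists had pair medians far apart. So did others, such as the heat shock list, with -0.19 and 0.74. Of 34 oocyte identity and localisation genes 6 were higher (17.6%) and 5 lower (14.7%), against 25.9% and 17.4% of all records. Their pair medians were -0.12 and 0.63. me31B, a repressor of stored mRNA, read 26610 and 3847 in immature and 18480 and 25390 in mature oocytes, and tral, its partner, 25420 and 11360 against 22180 and 23300. Of the axis determinant mRNAs, nos at 9405 and 6325 against 10130 and 9916 and bcd at 1976 and 2282 against 2441 and 2681 were higher in both mature libraries. grk, at 223 and 217 against 217 and 199, was lower in both by a very small gap. Of 34 nurse cell actin and ring canal genes 5 were higher (14.7%) and 4 lower (11.8%). Their summed level was 127500 and 72990 against 97190 and 104500. Act5C read 40290 and 20480 against 25510 and 26140. Of 29 piRNA pathway genes 11 were higher (37.9%) and 3 lower (10.3%). AGO3, a slicer of that pathway, read 2331 and 259 against 1787 and 2802. Among 41 genes of poly(A) tail control and decay 7 were higher (17.1%) and 3 lower (7.32%), with pair medians of -0.06 and 0.78.

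The records that set immature replicate 2 apart had long 3' UTRs by annotation, a feature looked at after several others had been tried. Records at least 2-fold lower in replicate 2 than in replicate 1 had a median annotated 3' UTR of 892 nt (1099 records), against 355 nt over 5357 coding records. Their whole transcripts were longer too, at a median of 3133 nt against 2255 nt, and these lengths were not told apart. The share of such records was 8.21% in the bin with the shortest 3' UTRs, whose median is 69 nt. It was 50.6% in the bin with the longest, whose median is 2117.5 nt. Median differences in the wild type replicate 1 pair went from 0.03 to -0.12 across these bins and in the replicate 2 pair from -0.16 to 1.00. In the mutant they went from -0.47 to 0.37 and from -0.36 to 1.06. By transcript length the wild type replicate 2 pair read -0.16 in the shortest bin and 0.49 in the longest. The phosphatase gene PRL-1, with a 3' UTR of 1240 nt, read 1924 in immature replicate 1, 160 in replicate 2, and 1471 and 2247 in mature oocytes. Records with short 3' UTRs were among them too, such as Nipped-B, the cohesin loader with a 3' UTR of 186 nt, which read 5780 and 593 against 3982 and 6216. The 33 records of chromosome 4 had pair medians of -0.41 and 2.36, and MED26, a Mediator subunit gene on it, read 4478 and 437 against 3603 and 5967.

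**Figure D5:**
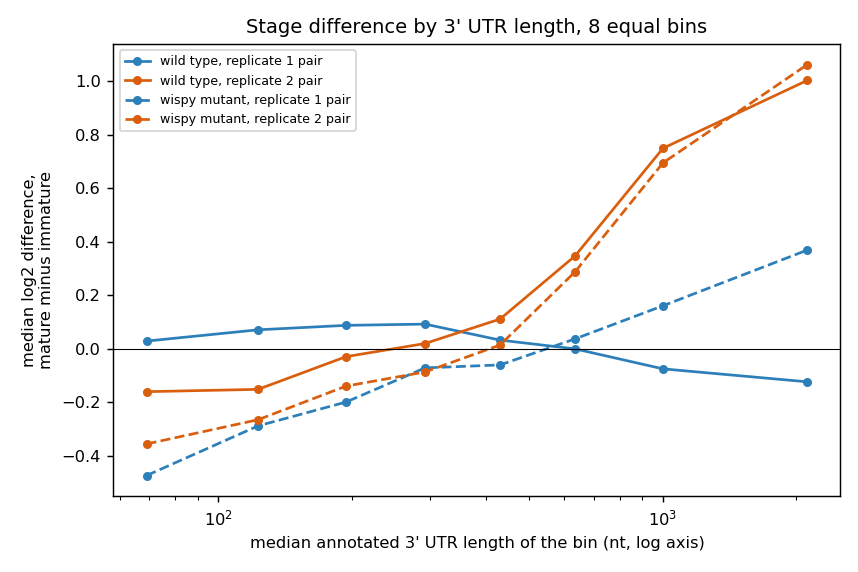
Median log2 difference between mature and immature oocytes in 8 bins of records ordered by annotated 3' UTR length (x axis, nt, log scale), solid lines for wild type and dashed lines for the wispy mutant. The wild type replicate 1 pair runs from 0.03 to -0.12 and the replicate 2 pair from -0.16 to 1.00.

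Results were also taken with a single immature library, alternatives added after the data were seen. With immature replicate 1 of both genotypes left out, limma called 2028 records higher (37.4%) and 1091 lower (20.1%). With immature replicate 2 of both left out it called 203 higher (3.74%) and 189 lower (3.49%). The lone immature library is then assumed to vary like the mature ones, while the immature libraries differed far more, so these p-values are too small. The endoplasmic reticulum and cytokinesis lists were drawn up after values of these same libraries were seen, so their counts here only describe. Of the 46 DNA replication genes 26 and 27 were called higher in the respective fits. Of the 16 snoRNA records 16 and 13 were called lower, and of the 35 endoplasmic reticulum records 31 and 20. Ribosomal protein genes depended on the library, with 77 of 82 called lower in the former fit and 7 in the latter. The cytokinesis list gave 27 and 18 higher of 42.

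The ribosomal RNA pseudogene records, which resemble ribosomal RNA, varied by library. CR40741 read 226100 and 77910 in immature and 33690 and 35640 in mature oocytes and was separated. CR40596, at 451500 and 150200 against 151600 and 266600, overlapped. These records took 7.98% of the sum in immature replicate 1 and 3.03% to 4.43% in the other 3 wild type libraries.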

How the data were processed

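Each value deposited is a normalised read count of the authors, a signal for 1 transcript record that is never negative and not whole. Per the submitters' processing notes, STAR 2.4.2a, HTSeq, RSEM 1.2.25 and the build dm6 were used, with roles not named. Per the labels' protocols, ERCC spike-ins were added to total RNA, ribosomal RNA was depleted with Ribo-Zero and TruSeq v2 libraries were made. How the values were normalised is not given in these sources. No step turned the values into whole reads (at best 19.0% of low values were whole within 0.05), so depth is unknown and no counting interval is given. Of 5422 records 1 exact duplicate was dropped. Of the 5421 left, 5406 matched RefSeq genes and had a length, and 5357 had a 3' UTR in the annotation.

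Values were tested as log2(value + 1) with limma 3.58.1 (R 4.3.3), an intensity trend and 4 groups of 2 libraries, with 4 residual and 2.27 prior degrees of freedom. Code was tested on simulated data with independent noise, sized by the spread between the wild type mature libraries. The immature libraries spread far more, so that test does not show how the fit behaves on these data. Alternatives were pseudocounts of 0.5 and 5, a mean of at least 500, 3 scalings, 4 or 12 libraries, array weights, a length trend, a robust prior, a replicate block and each library left out. A handful of exploratory fits with 4, 8 or 12 libraries, run before these, also called 0 records.

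The members and lists were chosen with earlier results of these data known. Of the lists, 2 were corrected in membership after the table was read. The added lists (endoplasmic reticulum, vesicle coats, cytokinesis, nucleotides, fatty acid and NADPH, antioxidants), 41 single genes, the 2-fold gap, the 3' UTR feature and the 3 added alternatives were chosen after values were seen. The genes scf, Fkbp14, l(1)G0320, CG5885 and HipHop entered lists because they ranked high. Named genes were the 12 with the widest gap in each direction, all uncalled fill-ins, without annotation-number names, the 3 noncoding records with the widest gap in each direction, and the 2 most abundant members of each list. Some list members are given only in ranges.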

Additional observations from a re-analysis of the deposited data

Results flagged for a closer look

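The stages were in opposite order, without overlap, in wild type and mutant oocytes for 5 named records. Their values below are the wild type log2 difference (mature minus immature) minus that of the mutant, from limma's interaction term with Benjamini-Hochberg adjustment, and none passed an adjusted p of 0.05. That fit takes the libraries as independent, whereas same-numbered replicates deviated together between the genotypes, at 0.849 in immature and 0.483 in mature oocytes. Over all 5421 records 2 passed that threshold, and neither is among these. Hsp70Aa differed by 3.88 (wild type 3.24, mutant -0.64, adjusted p = 0.132). Acer differed by 2.23 (wild type 1.43, mutant -0.80, adjusted p = 0.0692). LamC differed by 1.43 (wild type 1.11, mutant -0.32, adjusted p = 0.13). The noncoding record CR43809 differed by 1.27 (wild type 0.36, mutant -0.91, adjusted p = 0.139). For Ef1alpha48D the difference was -0.50 (wild type -0.27, mutant 0.23, adjusted p = 0.467).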

How the results depend on the processing

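The call of 0 records held under the other pseudocounts and filter, median-of-ratios and protein-coding sum scaling, 4 or 12 libraries, array weights, the length trend, the robust prior, the replicate block and each library left out (0 to 0). Quantile normalisation called 3, all 3 lower. A block with the replicate numbers crossed between the stages, chosen after seeing the data, called 16, 2 higher and 14 lower. With immature replicate 1 of both genotypes left out 3119 were called (2028 and 1091), and with immature replicate 2 of both left out 392 (203 and 189). The replicate block called 0, with 585 records at an unadjusted p under 0.05 against 539 without it. Replicate deviations correlated at -0.615 between the wild type stages and -0.375 between the mutant stages. Same-numbered libraries thus did not deviate in the same direction across the stages, which does not settle whether they were handled together. Scaling moved the median of all records from 0.14 to 0.02 (median-of-ratios), 0.12 (protein-coding sum) and -0.05 (quantile). The records at an unadjusted p under 0.05 then split 170 higher and 405 lower, 283 and 230, and 126 and 293. Array weights left 272 such records, and the 4 wild type libraries alone 286. With 1 library left out they numbered 1870 (immature 1), 462 (immature 2), 202 (mature 1) and 103 (mature 2). Separated records numbered 1459 to 2856 higher and 1046 to 2238 lower with 1 library left out, which fewer libraries alone increases, and 869 higher and 1258 lower under quantile normalisation and 963 higher and 1340 lower under median-of-ratios scaling, which turned the balance to the lower side. Records 2-fold apart numbered 4 to 992 higher and 25 to 59 lower with 1 library left out, 5 higher under quantile normalisation, and 9 higher and 13 lower with the length trend removed.

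Signs of uncalled log2 differences changed in 86 of 2367 values tried for 125 named genes, over 35 genes. Of the 86, 62 came from leaving out an immature library and 69 from genes within 1 SE of 0. The cause was not tested. Over the libraries left out in turn the ranges were: Act5C -0.64 to 0.33, otu -0.89 to 0.057, tral -0.16 to 1.00, me31B -0.30 to 2.49, Tm1 -0.29 to 1.81, mRpS5 -0.37 to 2.32, Rpn1 -0.45 to 0.00055, Aats-lys -0.64 to 0.064, wisp -0.23 to 1.27, dhd -0.17 to 0.11, Hsp83 -0.28 to 0.53, tud -0.72 to 0.51, Tl -0.054 to 1.95, CG7033 -0.10 to 0.15, Gapdh2 -0.24 to 0.15, Eno -0.33 to 0.095, Vha16-1 -0.44 to 0.67, GstD1 -0.13 to 0.18, Mtor -0.12 to 0.41, Spt6 -0.40 to 0.12, RpII215 -0.068 to 0.24, ttk -1.29 to 0.28, Hel25E -0.10 to 0.13, Tom40 -0.22 to 0.97, Tom70 -0.035 to 0.17, eff -0.35 to 2.88, Nipped-B -0.22 to 3.07, CkIIalpha -0.24 to 3.05, PRL-1 -0.081 to 3.50, Galphaq -0.31 to 3.05, snoRNA:229 -1.34 to 1.24. Leaving out an immature replicate of both genotypes gave the same values as leaving out that of wild type. Under median-of-ratios scaling the values were CG7033 -0.093, Vha16-1 -0.0044, GstD1 -0.089, RpII215 -0.033, Hel25E -0.10, Tom70 -0.050, under protein-coding sum scaling Hel25E -0.0067, under quantile normalisation Act5C 0.29, Ef1alpha48D 0.10, dhd 0.27, Nap1 0.081, Gapdh2 0.32, Eno 0.17, Nop60B 0.11, Tom70 -0.086, RpS5b 0.026, and with the length trend removed dhd 0.12, Gapdh2 0.039, snoRNA:229 1.01.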
